A study of Mus musculus with 2 samples.

Results

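The genes described are the receptor chains through which cells sense interferons, 5 interferon regulatory factors (IRFs) and Nlrc5. They were taken by gene symbol from the deposited table, and all 10 were found among its 54532 genes. Interferons are secreted proteins of antiviral and immune defence. Type I interferons bind a receptor made of IFNAR1 and IFNAR2, and interferon gamma, made by activated T and NK cells, binds a receptor made of IFNGR1 and IFNGR2. Both receptors act through JAK kinases on STAT transcription factors. Dimers of STAT factors bind a DNA element called GAS, and a complex that holds IRF9 binds an element called ISRE. IRFs are transcription factors that stand upstream of interferon production (IRF3, IRF5) or downstream of the receptors (IRF1, IRF8), and NLRC5 drives the genes of MHC class I antigen presentation. In marrow, interferon gamma is known to act on blood progenitors, macrophages and stromal cells.

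The study measured RNA in sorted marrow niche cells, which support blood stem cells and are not themselves blood cells, in 2 groups of transplanted mice. Mice of the aGVHD_V group were female CB6F1 recipients (CD45.2+) that received 2 irradiation doses of 4.0 Gy, then, 4 hours later, 5000000 marrow cells from B6.SJL donors (CD45.1+), and in addition 60000000 spleen cells from female C57BL/6 mice, given to set off acute graft-versus-host disease (aGVHD). Mice of the BMT group were the same recipients with the same irradiation and marrow, but without spleen cells. The sources used here do not give the age of the mice, the day of collection, the number of mice behind a library or the meaning of the V. Each group had 1 library, so no test between groups could be made and no difference below could be checked in a replicate.

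The depth was 11299834 recovered reads for aGVHD_V and 10869191 for BMT. The sort had depleted CD45, lineage-positive and CD71 cells, yet transcripts of blood cells were abundant in both libraries. Ptprc, which encodes CD45 itself, had 7.85 FPKM in the aGVHD_V library and 9.28 FPKM in the BMT library. The summed level of 10 neutrophil markers was 20247 FPKM (reads scaled by the authors to gene length and library size) in the aGVHD_V library and 15177 FPKM in the BMT library. For 10 stromal markers the sums were 42.5 and 711 FPKM in the same order of libraries, and each of the 10 was lower by 2-fold or more in the aGVHD_V library. Cxcl12, the chemokine of marrow stromal cells, had 14.6 FPKM in the aGVHD_V library and 346 FPKM in the BMT library. Cdh5, a junction protein of endothelium, was listed at 0 in the aGVHD_V library and had 10.9 FPKM in the BMT library. The levels below therefore describe all sequenced cells together, and fewer cells of a type cannot be told apart from less RNA per cell.

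**Figure D1:**
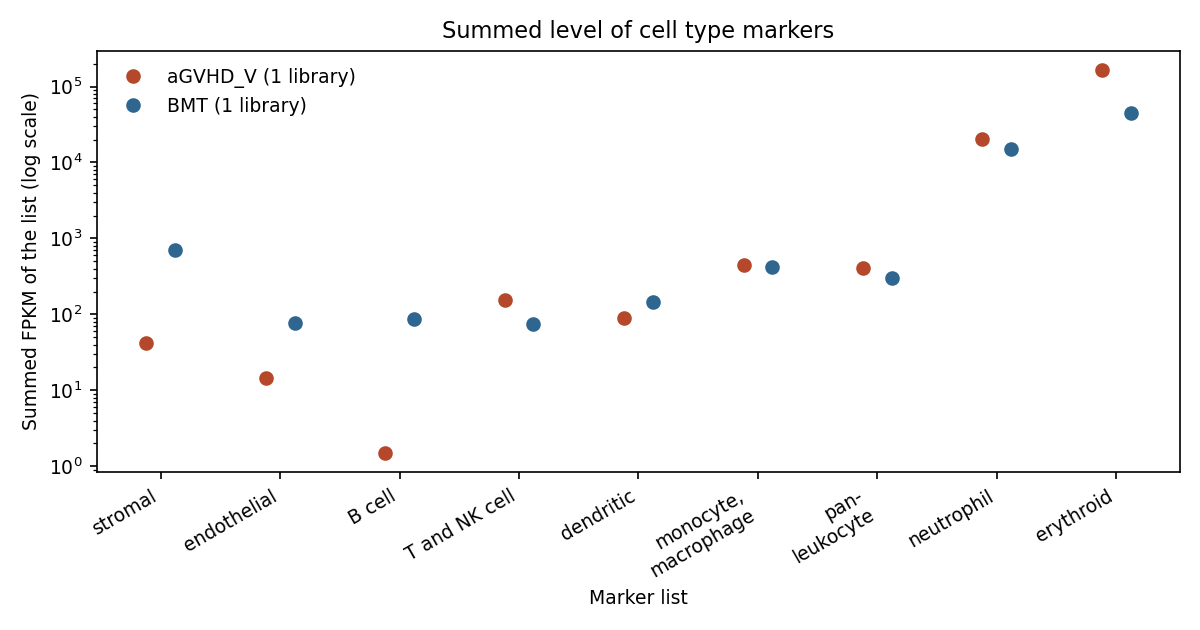
Summed FPKM (log scale) of 9 lists of cell type markers, 1 point per library, with the aGVHD_V library left of the BMT library. Stromal, endothelial and B cell sums were lower in the aGVHD_V library (42.5, 14.6 and 1.505 FPKM) than in the BMT library (711, 77.9 and 88.3 FPKM), and the erythroid sum was higher (165454 against 44687 FPKM).

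The DNA before the start sites shows which of these genes carry the letters of the interferon elements. RefSeq windows of 300 bases (250 before to 50 after a start site, GRCm38.p6) were matched by symbol for 9 of the 10 genes, in 11 windows, and not for Nlrc5. A GAS match was the letters TTCNNNGAA, which read the same on both strands, and an ISRE match was GAAA, any 2 bases and GAAA again, on either strand. No GAS match overlapped an ISRE match in these windows. Irf1, Irf8, Irf2, Ifnar1 and Ifnar2 held a GAS match, in 5 of the 11 windows, and Irf2 alone held an ISRE match. Of all 32851 such windows, 8.30% held a GAS match and 3.44% an ISRE match. No match was found for Irf3, Irf5, Ifngr1 and Ifngr2, which says only that these letters are not in these windows. A match is a string of letters and not a shown binding site. For Irf1 and Irf8, which interferon gamma is known to induce, the 250 bases before the start site are shown. For the other genes only the stretch around the match is shown, so that the spellings can be compared. Capitals mark the matches, and all sequences are on the plus strand.
Irf1 (chr11:53769764-53770013): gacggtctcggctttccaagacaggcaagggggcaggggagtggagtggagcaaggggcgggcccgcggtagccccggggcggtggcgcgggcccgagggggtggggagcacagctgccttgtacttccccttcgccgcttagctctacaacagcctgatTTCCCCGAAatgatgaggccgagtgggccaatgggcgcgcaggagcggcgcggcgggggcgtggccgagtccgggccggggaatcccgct
Irf8 (chr8:120736108-120736357): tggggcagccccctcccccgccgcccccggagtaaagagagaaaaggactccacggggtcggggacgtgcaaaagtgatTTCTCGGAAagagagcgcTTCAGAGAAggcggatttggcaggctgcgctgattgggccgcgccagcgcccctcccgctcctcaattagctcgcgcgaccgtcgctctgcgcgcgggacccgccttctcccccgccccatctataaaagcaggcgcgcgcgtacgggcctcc
Irf2 (chr8:46739495-46739539): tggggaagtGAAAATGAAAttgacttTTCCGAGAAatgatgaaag
Ifnar1 (chr16:91485200-91485228): ggcgggggcgTTCACGGAAggggcggggc
Ifnar2 (chr16:91372559-91372587): tgccaaggccTTCCTGGAAgaagagagta
The Irf1 match, TTCCCCGAA, began 90 bases before the start site. Irf8 held a pair of matches, TTCTCGGAA and TTCAGAGAA, which began 171 and 153 bases before its start site. In Irf2 the ISRE match, GAAAATGAAA, began 241 bases and the GAS match 224 bases before the start site. The match of Ifnar2 began 214 bases before its start site, and that of Ifnar1 began 5 bases before and ran across it.

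All 10 genes reached 1 FPKM in each library. On the log2(FPKM + 1) scale 8 of the 10 were lower in the aGVHD_V library, and Ifngr2 and Irf5 were higher except on equal FPKM sums. The median difference was -0.27 (range -1.09 to 0.52) beside a median of -0.07 over all 12942 genes that reached 1 FPKM in either library (measured genes). A gene is called lower at a difference of -1 or less, and called higher at 1 or more, which is 2-fold on this scale. Ifnar2, Irf3 and Irf8 were called lower, and none of the 10 was called higher. Of the 12942 measured genes 19.4% were called lower and 8.65% called higher, so that 3 of 10 is a count near this background. All 3 lay just past the threshold, at -1.01, -1.06 and -1.09. With a pseudocount of 5 in place of 1 none of the 10 passed it. With both libraries set to equal FPKM sums, which moved the median of all genes to -0.58, 30.01% of all genes were called lower and 4.94% higher, and Irf1 joined the 3 lower genes. The sums were 507958 FPKM in the aGVHD_V library and 340171 FPKM in the BMT library. Of these, 10 erythroid markers gave 165454 and 44687 FPKM.

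**Figure D2:**
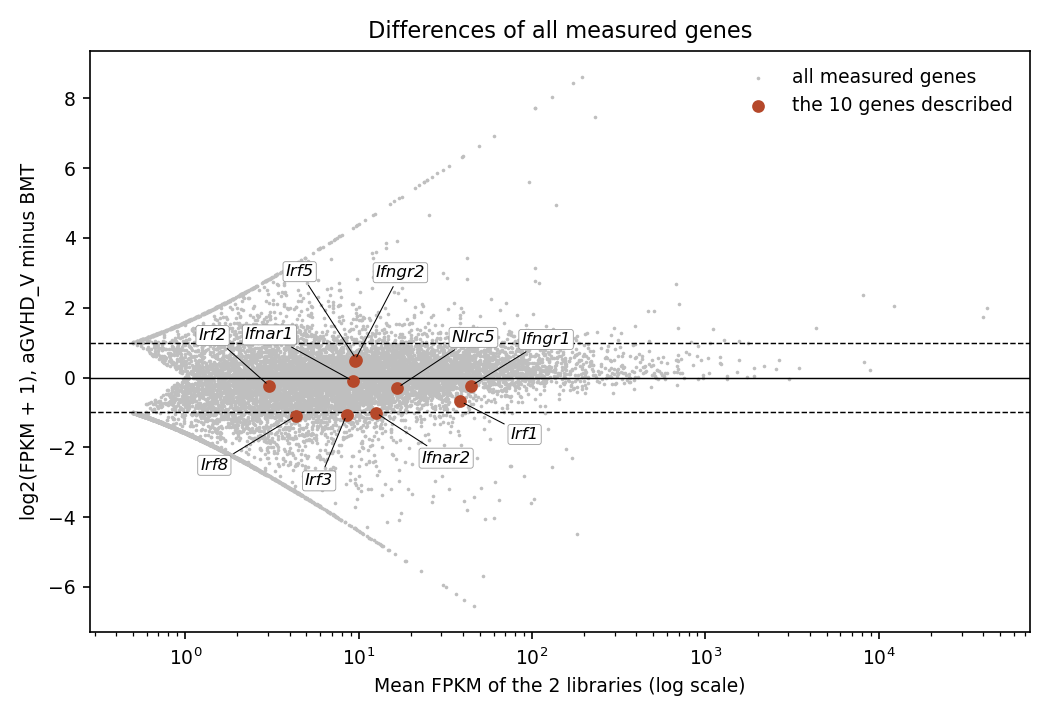
Difference in log2(FPKM + 1), aGVHD_V minus BMT, against the mean FPKM of both libraries (log scale) for 12942 measured genes (grey) and the 10 genes described (red). Dashed lines mark a difference of 1 in either direction, and Ifnar2, Irf3 and Irf8 lie just below the lower one, at -1.01, -1.06 and -1.09.

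The share of lower genes depended on their level. Among 5869 genes with a mean FPKM under 5, 34.4% were called lower, and Irf8 and Irf2 belong here. Among 2288 genes with a mean of 5 to 10, 11.6% were lower, and this range holds Irf3, Irf5, Ifngr2 and Ifnar1. Among 3693 genes with a mean of 10 to 50, 5.63% were lower and 5.63% were higher, and Ifnar2, Nlrc5, Irf1 and Ifngr1 lie in this range. Each range thus held 1 of the 3 lower genes.

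The precision of each ratio was judged from the reads. Read numbers of detected genes peaked at 44 in the aGVHD_V library and 14 in the BMT library, so reads were not taken as independent. Each gene's reads were divided by this peak before an exact 95% interval was computed. Such wide intervals hold counting error and nothing else. Of the 10 intervals of the ratio, only that of Irf1 left out a ratio of 1. When each read was counted as 1, an alternative chosen after seeing the data, 9 of the 10 intervals left it out and only that of Ifnar1 did not.

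**Figure D3:**
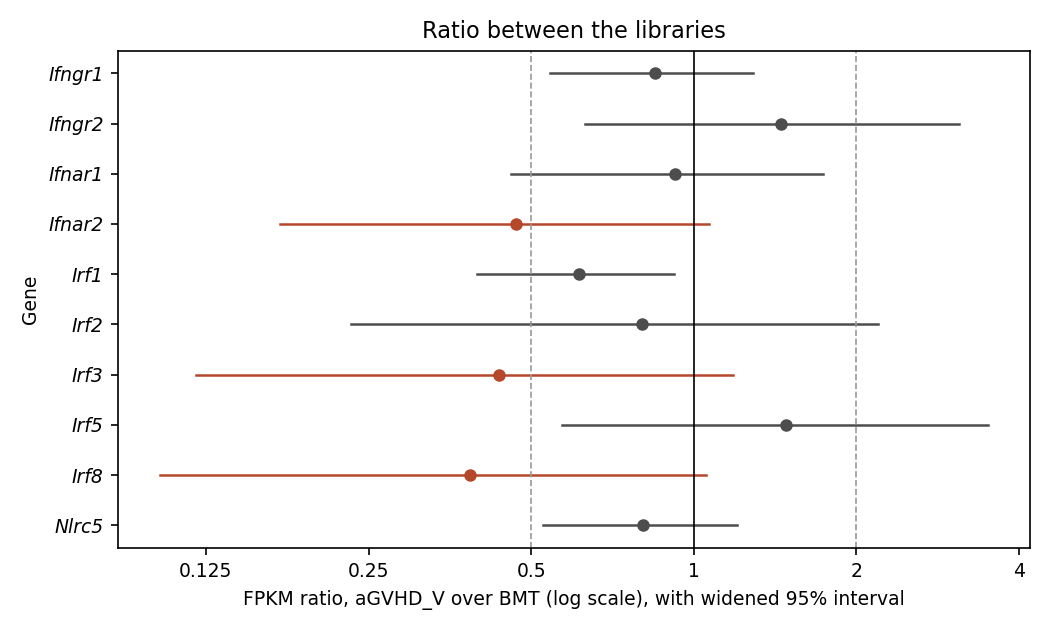
FPKM ratio of each gene, aGVHD_V over BMT (log scale), with its widened 95% interval, which covers counting error only. Red marks the genes called lower, at a log2(FPKM + 1) difference of -1 or less. The interval of Irf1 (0.397 to 0.919) lies below 1, and those of the other 9 genes include 1.

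Among the receptor chains, the interferon gamma receptor was carried at unequal levels by its chains in both libraries. Ifngr1 encodes the chain that binds interferon gamma (ENSMUSG00000020009, GRCm38 chromosome 10, 19591949 to 19610229, plus strand). It had 41.0 FPKM in the aGVHD_V library and 48.3 FPKM in the BMT library, on 1244 and 1668 reads, the highest level of the 10 genes in each. The ratio was 0.848 (widened 95% interval 0.542 to 1.29). Ifngr2 encodes the signalling chain that brings JAK2 (ENSMUSG00000022965, chromosome 16, 91547072 to 91565623, plus strand). It had 11.3 FPKM in the aGVHD_V library and 7.75 FPKM in the BMT library, on 452 and 354 reads, a ratio of 1.45 (0.630 to 3.11). Its difference of 0.49 was -0.04 once both libraries were set to equal FPKM sums. The level of Ifngr1 was 3.64 times that of Ifngr2 in the aGVHD_V library (interval 1.73 to 8.31) and 6.23 times in the BMT library (4.03 to 9.99). These intervals overlapped, and the binding chain was the more abundant one in both libraries.

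The chains of the type I receptor differed in FPKM beyond counting error in the BMT library, though not in read number. Ifnar2 encodes the chain that binds type I interferons with high affinity (ENSMUSG00000022971, chromosome 16, 91372783 to 91405589, plus strand). It had 8.002 FPKM in the aGVHD_V library and 17.1 FPKM in the BMT library, on 284 and 690 reads. This was 2.14-fold lower, and the interval of the fold (0.938 to 5.84) included 1. Ifnar1 encodes the partner chain, which binds TYK2 (ENSMUSG00000022967, chromosome 16, 91485238 to 91507441, plus strand). It had 8.94 FPKM in the aGVHD_V library and 9.66 FPKM in the BMT library, on 566 and 696 reads, and was the gene of the 10 with the smallest difference as reported (-0.10), though not with equal FPKM sums (-0.62). The level of Ifnar1 over that of Ifnar2 was 1.12 in the aGVHD_V library (0.404 to 3.45) and 0.565 in the BMT library (0.373 to 0.856). Ifnar2 thus had the higher FPKM in the BMT library beyond counting error, while in the aGVHD_V library no order could be detected at this depth. The intervals of these ratios overlapped. In the BMT library the reads were nearly equal (690 for Ifnar2 and 696 for Ifnar1). The order there rests on the gene lengths used, 3329 bases for Ifnar2 and 5940 bases for Ifnar1. The interval does not cover error in these lengths.

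Ifnar2, Ifnar1 and Ifngr2 lie in this order on the same strand of chromosome 16. Il10rb, the receptor chain shared by interleukin 10 and the type III interferons, lies between Ifnar2 and Ifnar1 (91406164 to 91425834). Along this stretch the differences were -1.01 for Ifnar2, -0.21 for Il10rb, -0.10 for Ifnar1 and 0.49 for Ifngr2. Il10rb had 6.60 FPKM in the aGVHD_V library and 7.82 FPKM in the BMT library, and like the other 3 ratios its own (0.844, 0.287 to 2.09) had an interval that included 1. Exons of Ifnar2 share 315 bases with the predicted gene Gm21970 on the same strand, which had no reads in either library.

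**Figure D4:**
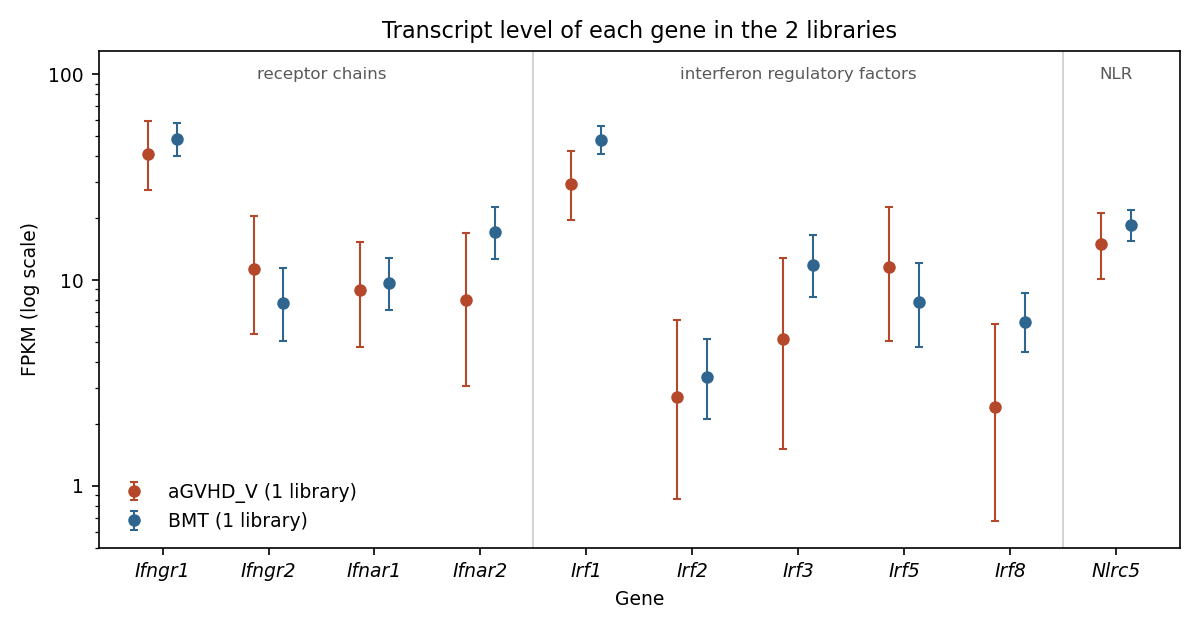
FPKM (log scale) of each gene in the aGVHD_V library (red, left) and the BMT library (blue, right), with widened 95% intervals that cover counting error only. Ifngr1 was highest in both libraries (41.0 and 48.3 FPKM), and Irf8 (2.42 FPKM) and Irf2 (3.39 FPKM) were lowest in the aGVHD_V and the BMT library.

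Of the IRFs, Irf1, Irf2, Irf3 and Irf8 were lower in the aGVHD_V library and Irf5 was higher except on equal FPKM sums. Irf1 had the narrowest interval of them. Irf1 encodes an activator that interferon gamma is known to induce (ENSMUSG00000018899, chromosome 11, 53770014 to 53778374, plus strand). It had 29.4 FPKM in the aGVHD_V library and 47.9 FPKM in the BMT library, on 1247 and 2310 reads. This was 1.63-fold lower, with an interval of 1.09 to 2.52. The difference was -0.69, and ranged from -1.25 to -0.62 over the 10 alternatives run. These did not put its sign to a test, since filters and pseudocounts cannot turn it and the scalings lowered most differences. Irf2 encodes a factor that competes with IRF1 for the same DNA (ENSMUSG00000031627, chromosome 8, 46739732 to 46847458, plus strand). It had 2.71 FPKM in the aGVHD_V library and 3.39 FPKM in the BMT library, on 214 and 304 reads, a ratio of 0.801 (0.232 to 2.19). The level of Irf1 was 10.8 times that of Irf2 in the aGVHD_V library (4.10 to 36.6) and 14.1 times in the BMT library (9.01 to 23.2). The activator was the more abundant of this pair in both libraries, and the intervals overlapped. Exons of Irf1 share 135 bases with the opposite-strand gene Gm17334, which had 0 reads in the aGVHD_V library and 12 reads in the BMT library.

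IRF3 and IRF5 act downstream of sensors of microbial nucleic acids and of Toll-like receptors and, once phosphorylated, drive the genes of type I interferons and inflammatory cytokines. Irf3 (ENSMUSG00000003184, chromosome 7, 44997648 to 45002848, plus strand) had 5.18 FPKM in the aGVHD_V library and 11.9 FPKM in the BMT library, on 190 and 496 reads. This was 2.30-fold lower, and the interval of the fold (0.847 to 8.35) included 1. Its exons share 88 bases with Bcl2l12 on the opposite strand, a gene with 6.88 FPKM in the aGVHD_V library and 2.88 FPKM in the BMT library. Irf5 (ENSMUSG00000029771, chromosome 6, 29526625 to 29541871, plus strand) had 11.6 FPKM in the aGVHD_V library and 7.81 FPKM in the BMT library, on 359 and 275 reads. Its ratio was 1.48 (0.570 to 3.51), and its difference of 0.52 was -0.01 once both libraries were set to equal FPKM sums. Its exons share 411 bases with Tnpo3 on the opposite strand, which had 6.78 FPKM in the aGVHD_V library and 7.42 FPKM in the BMT library. The sources used here do not say whether strand was used in counting, so reads in these shared bases could not be assigned to a gene. In the aGVHD_V library Irf5 stood above Irf3, and in the BMT library Irf3 stood above Irf5, with overlapping intervals in each.

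Irf8 had the largest difference of the 10 genes on the log2(FPKM + 1) scale as reported, though not with a pseudocount of 5 or with equal FPKM sums. It encodes a factor of monocyte, dendritic cell and B cell development (ENSMUSG00000041515, chromosome 8, 120736358 to 120756694, plus strand). It had 2.42 FPKM in the aGVHD_V library and 6.29 FPKM in the BMT library, on 182 and 538 reads. This was 2.60-fold lower, and the interval of the fold (0.949 to 9.75) included 1. Its relative Irf4, a factor of lymphocytes and plasma cells, had 1.28 FPKM in the aGVHD_V library and 5.89 FPKM in the BMT library, and its 67 reads in the aGVHD_V library lay under the floor of 132 reads, so no fold is given.

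Markers of the cell types that use IRF8 differed between the libraries as follows. Of 10 B cell markers 8 lacked reads in the aGVHD_V library and none was at 0 in the BMT library, with summed levels of 1.505 and 88.3 FPKM in that order. Fewer genes had reads at all in the aGVHD_V library: 12310 of 54532, against 15477 in the BMT library. Cd79a, a chain of the B cell receptor, had 0.19 FPKM in the aGVHD_V library and 22.2 FPKM in the BMT library. The 12 monocyte and macrophage markers summed to 445 FPKM in the aGVHD_V library and 419 FPKM in the BMT library, with none at 0 in either. Of these 12 genes 8 were lower in the aGVHD_V library, 2 of them (Mrc1 and Vcam1) called lower, and 0 were called higher (median -0.48). Csf1r, the receptor that defines these cells, had 8.29 FPKM in the aGVHD_V library and 11.5 FPKM in the BMT library. Of 10 dendritic cell markers 5 lacked reads in the aGVHD_V library and 1 in the BMT library. None of these 5 had enough reads in the BMT library for a bound on its fold. Their sums were 89.5 FPKM in the aGVHD_V library and 147 FPKM in the BMT library, of which Bst2 alone gave 82.6 and 127 FPKM. Siglech, which marks plasmacytoid dendritic cells, was at 0 in the aGVHD_V library and had 0.32 FPKM in the BMT library. The part of these cells in the levels of Irf8 and Irf4 was not tested.

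Nlrc5, the activator of MHC class I genes (ENSMUSG00000074151, chromosome 8, 94434356 to 94527272, plus strand), had 14.9 FPKM in the aGVHD_V library and 18.5 FPKM in the BMT library. With 1353 and 1907 reads it was among the most deeply covered of the 10 genes, and its ratio was 0.807 (0.527 to 1.201). The class I genes it is known to drive were at nearly equal FPKM in the libraries. H2-K1, a class I heavy chain, had 750.0 FPKM in the aGVHD_V library and 754 FPKM in the BMT library, and B2m, the light chain, had 1929 and 1889 FPKM in the same order of libraries. The ratio of H2-K1 was 0.995 (0.897 to 1.10) and that of B2m was 1.02 (0.912 to 1.14). On equal FPKM sums the difference of B2m was -0.55, close to the median of all genes on that scale (-0.58). Of 15 measured NLRC5 partners and class I genes 1 was called lower and 0 were called higher (median -0.07). That gene was Rfx5, a subunit of the complex that recruits NLRC5 to promoters, with 0.24 FPKM in the aGVHD_V library and 1.68 FPKM in the BMT library on 14 and 112 reads. Its count in the aGVHD_V library is under the floor, so no fold is given. Ciita, the class II counterpart of Nlrc5, had 0 reads in aGVHD_V and 28 reads in the BMT library, under the floor in both.

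Levels spread over a wide range within each library, and the genes were ranked by FPKM. This order depends on the deposited gene lengths. The intervals cover counting error and not error in these lengths. In the aGVHD_V library the order was Ifngr1, Irf1, Nlrc5, Irf5, Ifngr2, Ifnar1, Ifnar2, Irf3, Irf2 and Irf8, and the intervals of all neighbours in this order overlapped. In the BMT library the order was Ifngr1, Irf1, Nlrc5, Ifnar2, Irf3, Ifnar1, Irf5, Ifngr2, Irf8 and Irf2. There Irf1 (interval 40.9 to 55.8 FPKM) and Nlrc5 (15.5 to 21.9 FPKM) were the only neighbours whose intervals did not overlap. Ifngr1, Irf1 and Nlrc5 were thus the first 3 genes in both libraries. The receptor chains summed to 69.2 FPKM in the aGVHD_V library and 82.8 FPKM in the BMT library, and the 5 IRFs to 51.3 and 77.3 FPKM in the same order of libraries.

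The rest of the pathway was described with 10 lists of 114 genes, of which 87 were measured. Of these 15 were called lower and 5 called higher, beside the 19.4% and 8.65% of all measured genes, and the median difference was -0.11. On equal FPKM sums these counts were 25 lower and 1 higher. Among 21 interferon genes Ifng was the only one with reads, 14 in the aGVHD_V library (1.01 FPKM) and 92 in the BMT library (5.86 FPKM). The count in the aGVHD_V library is under the floor, so no fold is given. Markers of the T and NK cells that make interferon gamma stood higher in the aGVHD_V library in 9 of 9 measured genes. On equal FPKM sums Cd8a, Cd8b1 and Lck were lower instead. Cd8a (-0.04) and Cd8b1 (-0.09) were also lower with library sizes of all recovered reads, while Lck was not (0.01). With library sizes without hemoglobin, mitochondrial and ribosomal protein genes, Cd8a (0.09), Cd8b1 (0.04) and Lck (0.14) were all higher. Cd3d and Cd4 were under the floor in both libraries, and Cd8b1 was under it in the aGVHD_V library. Only Nkg7 and Gzmb had a ratio whose interval left out 1. Summed levels of all 12 were 154 FPKM in the aGVHD_V library and 75.8 FPKM in the BMT library, with 2 at 0 in each. Most of these sums came from Nkg7 (72.2 and 35.4 FPKM) and Gzmb (41.3 and 13.8 FPKM). Cd3e, a chain of the T cell receptor complex, had 2.90 FPKM in the aGVHD_V library, under the floor there, and 1.27 FPKM in the BMT library. The part of these cells in the level of Ifng was not tested.

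**Figure D5:**
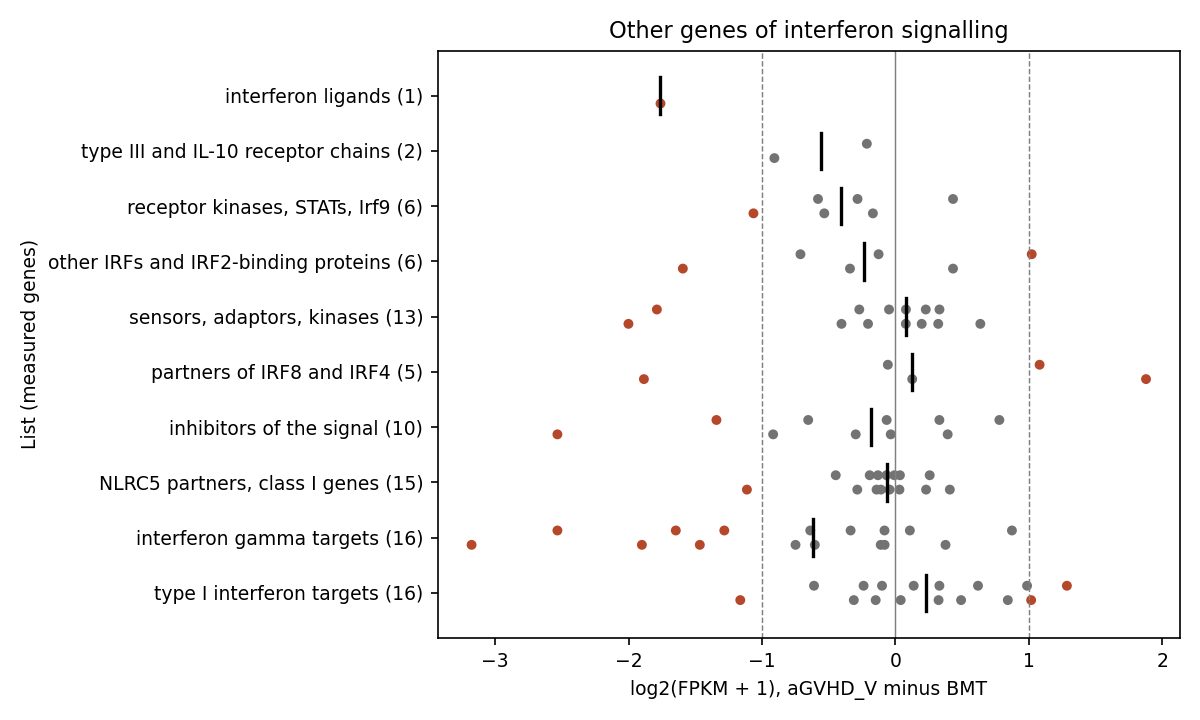
Difference in log2(FPKM + 1), aGVHD_V minus BMT, of each measured gene of 10 lists (points, red where called lower or higher), with the list median (black bar). Interferon gamma targets had 6 called lower of 16 (median -0.62), and type I interferon targets had 1 lower and 2 higher of 16 (median 0.23).

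Of 6 receptor kinases, STATs and Irf9, only Tyk2 was called lower and none higher (median -0.41). Tyk2, the kinase bound to IFNAR1, had 5.60 FPKM in the aGVHD_V library and 12.8 FPKM in the BMT library, 2.29-fold lower with an interval of 1.15 to 5.11. Jak1, which serves both receptors, had 29.4 FPKM in the aGVHD_V library and 33.2 FPKM in the BMT library. Irf9, the DNA-binding subunit of the complex at ISRE elements, had 19.5 FPKM in the aGVHD_V library and 14.2 FPKM in the BMT library, a ratio of 1.37 (0.834 to 2.20), and its difference of 0.43 was -0.11 once both libraries were set to equal FPKM sums.

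Of 6 measured genes of the other IRFs and their binding proteins 1 was called lower and 1 called higher (median -0.23). The lower one was Irf4, given above. Irf2bpl, a relative of the IRF2-binding proteins, had 6.18 FPKM in the aGVHD_V library and 2.54 FPKM in the BMT library, a ratio of 2.44 whose interval (0.722 to 7.62) included 1. Irf7, the IRF that amplifies type I interferon responses, had 35.2 FPKM in the aGVHD_V library and 38.5 FPKM in the BMT library (ratio 0.914, 0.601 to 1.36). Of 13 sensors, adaptors and kinases upstream of IRF3 and IRF5, 2 were called lower and 0 higher (median 0.08, and -0.44 with equal FPKM sums). Tmem173 (STING) had 1.996 FPKM in the aGVHD_V library and 9.35 FPKM in the BMT library, on 49 and 261 reads, the first under the floor. Ticam1 (TRIF) was at 0 in the aGVHD_V library and had 3.004 FPKM in the BMT library, too few reads for a bound. Myd88, an adaptor with the highest mean level of this list, had 19.6 FPKM in the aGVHD_V library and 23.9 FPKM in the BMT library.

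Of 5 partners of IRF8 and IRF4, 1 was called lower and 2 called higher (median 0.13, and -0.44 with equal FPKM sums). Cebpa, a myeloid factor also used by fat cells, had 8.75 FPKM in the aGVHD_V library and 35.0 FPKM in the BMT library, 4.00-fold lower (1.72 to 11.7). Batf, a partner of IRF4 in lymphocytes, had 11.7 FPKM in the aGVHD_V library and 2.46 FPKM in the BMT library, where its 42 reads were at the floor. Batf3 had 1.12 FPKM in the aGVHD_V library, on 19 reads, and was at 0 in the BMT library, so it was under the floor in both. Ikzf1 (Ikaros), the most abundant of this list, had 56.3 FPKM in the aGVHD_V library and 58.6 FPKM in the BMT library. Of the 2 measured genes of the type III and interleukin 10 receptor chains none was called lower or higher on the log2(FPKM + 1) scale (median -0.56).

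Among 10 inhibitors of interferon signalling 2 were called lower and 0 higher (median -0.18). Socs1, the JAK inhibitor that interferon gamma is known to induce, had 0 reads in aGVHD_V and 4.79 FPKM in the BMT library. Socs1 was thus under the floor in the aGVHD_V library, so no fold is given, and the interval of its ratio (0 to 1.28) included 1. Socs3 had 16.3 FPKM in the aGVHD_V library and 42.8 FPKM in the BMT library, 2.63-fold lower (1.43 to 5.35). Ptpn6, a phosphatase of blood cells and the most abundant gene of the list, had 36.7 FPKM in the aGVHD_V library and 58.2 FPKM in the BMT library, 1.59-fold lower (1.03 to 2.54).

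Of 16 measured targets of interferon gamma 6 were called lower and 0 higher, beside 19.4% lower over all measured genes. By mean level, 34.4% were lower under 5 FPKM, where Gbp5 and Socs1 lie, and 11.6% at 5 to 10 FPKM, where Tgtp1 lies. At 10 to 50 FPKM, where Gbp3 and Iigp1 lie, 5.63% were lower, and at 50 FPKM or more, where Cxcl9 lies, 2.01%. The median was -0.62. It was -1.08 with equal FPKM sums, where 9 were lower, and -0.47 with genes lacking reads set to their floor, where 5 were lower. Cxcl9, a chemokine that attracts T cells, had 9.33 FPKM in the aGVHD_V library and 92.5 FPKM in the BMT library, 9.91-fold lower (4.69 to 25.3). The GTPases Iigp1 (17.8 FPKM in the aGVHD_V library and 57.7 FPKM in the BMT library) and Gbp3 (7.67 and 23.0 FPKM in the same order) were 3.25-fold lower (1.86 to 6.17) and 2.99-fold lower (1.31 to 8.40). Gbp5 (1.31 and 7.64 FPKM) and Tgtp1 (3.86 and 10.8 FPKM) were at or under the floor in the aGVHD_V library, and Socs1 was the other lower gene. Igtp, with the highest mean level of the list, had 54.6 FPKM in the aGVHD_V library and 59.1 FPKM in the BMT library. The GTPases are families of close copies, so the division of reads among them is uncertain.

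Targets of type I interferon had a median of 0.23, which became -0.30 with equal FPKM sums. Of 16 measured 1 was called lower and 2 were called higher. Isg15, a ubiquitin-like protein, had 465 FPKM in the aGVHD_V library and 190.0 FPKM in the BMT library, a ratio of 2.45 (1.83 to 3.25). Ifit1 had 9.32 FPKM in the aGVHD_V library and 4.10 FPKM in the BMT library, and the interval of its ratio (0.672 to 7.04) included 1. Oasl1 had 3.67 FPKM in the aGVHD_V library and 9.45 FPKM in the BMT library, with its 102 reads in the aGVHD_V library under the floor. Isg15 stayed higher in the aGVHD_V library under each of the 5 scalings run (0.71 to 1.27).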

How the data were processed

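RNA of sorted marrow niche cells was sequenced in 2 libraries, 1 aGVHD_V and 1 BMT, grouped by their labels. Per the file headers, the deposited values are FPKM made by the authors. Named in the submitters' processing notes are edgeR 3.18.1, GRCm38 and mm10. The aligner, counter and strand setting were not given in the sources used here. A further value column (1), headed aGVHD_R, matches no sample label used here and stayed unused.

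FPKM times gene length gave whole multiples of 1 step per library (100% of values above 0, tolerance 0.05), which are read numbers. The steps correspond to library sizes of 10661688 reads for aGVHD_V and 12127105 reads for BMT, 0.944 and 1.12 times the recovered totals, so the libraries had been scaled. For intervals, reads were divided by the modal read number (44 and 14, leaving out read numbers under 4, moving window of 7). Exact Poisson (level) and Clopper-Pearson (ratio) 95% intervals cover counting error only. A floor was 3 such counts per library, 132 and 42 reads.

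Differences are log2(FPKM + 1) in aGVHD_V minus BMT, which understates low genes, and folds are FPKM ratios without a pseudocount. A gene was measured if it reached 1 FPKM in either library. With 1 library per group no test was made. The steps were tested on simulated data, which cannot show whether real reads come in groups of the modal read number. Gene spans were equal in GENCODE M21, the source of exon overlaps. Text genes are the 10 members, every list gene called lower or higher, the most abundant of each list, and a few fixed factors and markers, of which some are not reported here. 2 libraries give 2 points, so genes of like pattern were not sought. Members and lists were chosen with earlier results of these data known. Python 3.11.15, pandas 2.3.3 and scipy 1.17.1 were used.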

Additional observations from a re-analysis of the deposited data

How the results depend on the processing

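The 10 main alternatives were pseudocounts of 0.1 and 5, 5 scalings, no filter, an FPKM minimum of 5 and genes without reads at their floor. The differences of all 10 genes described moved by less than their widened intervals under each alternative that kept the gene, and Irf2 was left out at the FPKM minimum of 5. These intervals are so wide that this does not show stability. Ifngr2 (0.49 to -0.04) and Irf5 (0.52 to -0.01) changed sign on equal FPKM sums and still stayed within them. Ifnar2, Irf3 and Irf8 stayed called lower under 9 of the 10 alternatives, but this count does not measure how firm the calls are. Filter and floor settings cannot change the difference of a kept gene with reads. A pseudocount of 0.1 enlarges differences, and the 5 scalings lowered most of them. With a pseudocount of 5, which shrinks the differences of low genes, 0 of the 10 genes passed. With that pseudocount 7 pathway genes were lower and 2 higher, and of all genes 3.89% were lower and 2.75% higher. With equal FPKM sums 25 pathway genes were lower and 1 higher (median -0.65), and of all genes 30.01% were lower and 4.94% higher. Pathway genes called higher numbered 3 with library sizes of all recovered reads (median -0.35), with centring on the median difference and with library sizes without hemoglobin, mitochondrial and ribosomal protein genes. Of all genes 4.61% were lower and 2.05% higher without a filter, since more genes entered, 10.7% were lower at an FPKM minimum of 5, and 7.63% were lower when genes lacking reads were set to their floor. The median of all genes was -0.58 with equal FPKM sums and -0.28 with library sizes of all recovered reads. With each read counted as 1, an alternative added after seeing the data, 9 of the 10 intervals left out a ratio of 1, against 1 as reported. That count was also 1 with the read number of the aGVHD_V library as divisor in both libraries. Depth limits genes under the floor, for which no fold is given. No paired analysis was possible because each group has 1 library.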
